A study of Mus musculus with 6 samples.

Results

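The haemangioblast transcription factors are 10 genes, Etv2, Fli1, Erg, Tal1, Lyl1, Lmo2, Gata2, Runx1, Sox7 and Sox18, of the 23353 genes listed in the expression table. They were chosen by gene symbol, with earlier results of these data known. Shares of them called are therefore a description and not a test of an independent set. RNA-seq was performed on day 4 embryoid bodies (EBs, floating aggregates in which mouse embryonic stem cells, mESCs, differentiate) in 2 groups of 3 libraries. The wildtype group was made from W9.5 mESCs, the parental line. The EVX1-Δfs group was made from clone 14, a CRISPR-edited derivative of the same line carrying small frameshift deletions on both alleles in the part of Evx1 that encodes the homeodomain. For 4 days both groups grew in serum-containing medium from which LIF had been withdrawn, with no other treatment. EVX1-Δfs is therefore represented by 1 clone, and its 3 libraries are separate differentiations of that clone, so a difference caused by the loss of EVX1 and a difference particular to the clone cannot be told apart. Per the series' design text each side by side set was started on its own day, and p-values measure the spread between differentiations. Each library held between 7597879 and 9914471 reads assigned to genes, which covered 15998 to 16479 genes.

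The edit lies in exon 2 of Evx1, which is on chromosome 6 at 52263492 to 52268372 on the plus strand of NCBIM37 (the assembly of mm9). The guide is shown because it defines the mutant group. It matched 1 site in the genome, chr6:52265847-52265869 on the plus strand, and its PAM is in capitals:
Evx1 guide with PAM: ccagatgcgccgataccgcaCGG
Evx1 itself had 2358, 2176 and 2400.0 normalized counts (reads divided by a size factor of the library) in wildtype replicates 1 to 3. The EVX1-Δfs replicates had 2354, 2516 and 2012. The groups overlapped and the log2 fold change was -0.02 ± 0.11 (SE). A frameshift is invisible to a count per gene, and the genotype was not checked by these values.

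Haemangioblasts are mesodermal precursors that give rise to both blood and endothelium. They arise from Kdr-positive (Flk1) posterior mesoderm after BMP and WNT signals have acted on the primitive streak. Etv2, an ETS-domain factor, is required at the entry into this fate and acts upstream of Tal1, Gata2, Lmo2 and Fli1. TAL1 and its relative LYL1 bind E-box DNA as partners of E proteins and are joined by the bridging proteins LMO2 and LDB1 to a GATA factor. FLI1 and ERG are ETS factors that maintain endothelial and blood stem cell programmes, RUNX1 is needed for definitive blood, and SOX7 and SOX18 are SOXF factors of early endothelium.

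Promoter sequences were taken from RefSeq, as windows of 300 bases from 250 before to 50 after a transcript's start, and placed on NCBIM37 by exact match. Of the 10 genes, 6 had an entry, with 11 windows between them. The 250 bases before the start are shown for Gata2, which fell, and for Tal1 and Runx1, which did not pass the test, and for Etv2 only the match with 10 bases on each side, because its window lies in an exon of GENCODE vM1 that is untranslated in 1 transcript and mostly intron in another. Capitals mark the ETS motif AGGAAG, or AGATAA, which is bound by GATA factors, on either strand. The Tal1 and Gata2 windows, at chr4:114728781-114729030 and chr6:88143635-88143884, are on the plus strand. The Runx1 and Etv2 stretches, at chr16:92826320-92826569 and chr7:31421063-31421088, are on the minus strand:
Tal1: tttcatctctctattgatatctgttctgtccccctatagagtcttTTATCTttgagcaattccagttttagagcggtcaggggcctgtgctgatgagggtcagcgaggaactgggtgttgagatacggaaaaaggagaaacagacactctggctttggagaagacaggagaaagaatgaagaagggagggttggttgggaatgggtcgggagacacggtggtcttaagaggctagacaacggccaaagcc
Gata2: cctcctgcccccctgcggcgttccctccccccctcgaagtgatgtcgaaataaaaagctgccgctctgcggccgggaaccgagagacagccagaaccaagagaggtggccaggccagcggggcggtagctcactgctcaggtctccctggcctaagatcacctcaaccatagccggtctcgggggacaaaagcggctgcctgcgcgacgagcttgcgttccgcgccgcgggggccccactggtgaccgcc
Runx1: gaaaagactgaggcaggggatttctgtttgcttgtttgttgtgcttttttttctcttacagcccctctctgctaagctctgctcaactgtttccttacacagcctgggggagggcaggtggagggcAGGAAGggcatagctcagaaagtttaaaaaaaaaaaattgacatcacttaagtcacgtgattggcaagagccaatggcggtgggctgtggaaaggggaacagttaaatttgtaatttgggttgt
Etv2: tgtctgaactAGGAAGgacaggggaa
The Tal1 match starts 205 bases before the start, the Runx1 match 124 bases and the Etv2 match 207 bases. The Gata2 window shown held neither motif. Tal1, Gata2 and Runx1 each had another window that is not shown and held neither motif. Its bases before the start lie at chr4:114730166-114730415, chr6:88148408-88148657 and chr16:92697575-92697824. The ETS motif was in 3 of the 11 windows, against 35.4% of all 32851 promoter windows of that length. The GATA motif was in 2 of 11, against 11.2%. A window of Erg, a gene too low to be tested, held both motifs and is not shown. CAGNTG (a form of the E-box), TGTGGT (RUNX) and ACAANG (SOX) were in 5, 1 and 3 windows, against 51.4%, 16.8% and 41.2%. Each motif was searched on both strands and counted independently of the others, whether or not matches overlapped. These are matches of letters and not measured binding.

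Etv2, Gata2 and Lmo2 fell in EVX1-Δfs EBs, none of the 10 genes rose, and the mean of every gene was lower than in wildtype EBs (49.9% of all genes tested had a fold change below 0). The test was limma on log2(normalized count + 1) over 13136 genes with at least 10 normalized counts in at least 3 libraries, and a gene was called at a Benjamini-Hochberg adjusted p under 0.05. Erg was too low to be tested. Of the 9 genes tested, 3 were called lower and 0 higher, where 2.95% of all genes tested were called lower and 2.08% higher. At an unadjusted p under 0.05, 8 of the 9 were lower and 0 higher, where 12.4% of all genes tested were lower and 10.7% higher. Without Lyl1, which reached 10 normalized counts in the wildtype libraries alone, it was 7 of 8. DESeq2 and edgeR, on whole reads recovered from the normalized values, each called 4 lower (Etv2, Gata2, Lmo2 and Fli1) and 0 higher, against 4.45% and 2.87% of all genes lower and 2.44% and 2.35% higher. With the replicate number as a block, limma called the same 3 genes lower and 0 higher, against 1.11% and 0.579% of all genes. The median log2 fold change of the 9 was -0.89, against 0 over all genes tested, and it was -0.77 without Lyl1. In bulk EBs, fewer cells of a type and less RNA per cell cannot be told apart.

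**Figure D1:**
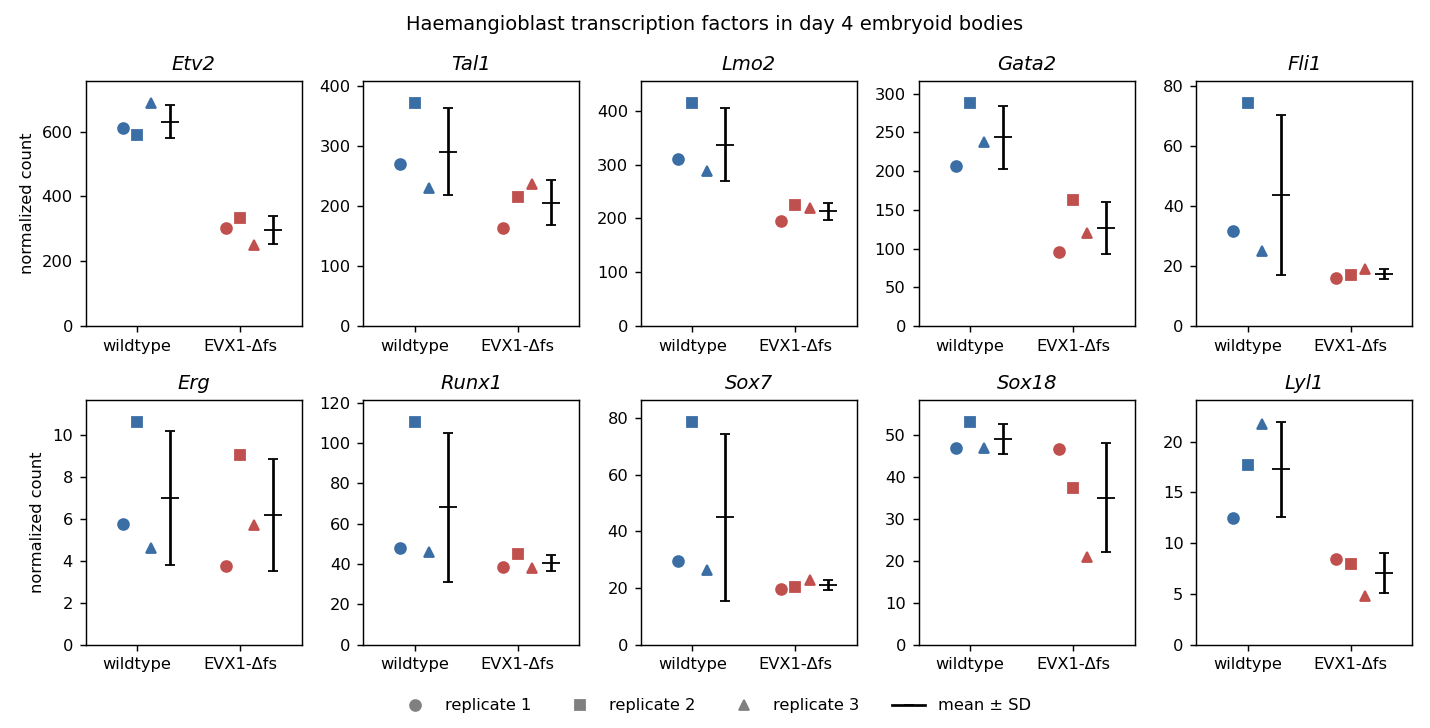
Normalized counts (y axes, each starting at 0 and scaled to its own gene) of the 10 haemangioblast transcription factors in the 3 wildtype and 3 EVX1-Δfs libraries. Points are libraries marked by replicate and bars are the mean ± SD (n = 3). The groups overlap for Tal1 and Erg only, and are apart by a small margin for Runx1 and Sox18. Fli1, Runx1 and Sox7 are high in wildtype replicate 2.

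Among the ETS factors, Etv2 (chromosome 7, 31418635 to 31421308, minus strand) had 612, 589 and 687 normalized counts in wildtype replicates 1, 2 and 3. In EVX1-Δfs replicates 1, 2 and 3 it had 303, 334 and 249. Every EVX1-Δfs library lay well below every wildtype library. The means were 629.6 ± 51.1 (SD, n = 3) and 295 ± 43.1, so that EVX1-Δfs EBs held 46.9% of the wildtype level. The log2 fold change was -1.10 ± 0.13 (SE), with an adjusted p of 4.94e-05 by limma. Etv2 was called in all 18 alternative fits, over which the adjusted p ranged from 6.24e-11 to 0.00502. The same-numbered pairs of libraries differed by -1.01, -0.82 and -1.46 on the log2 scale.

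Fli1 (chromosome 9, 32229793 to 32348974, minus strand) had 31.6, 74.3 and 25.2 normalized counts in the wildtype libraries. In the EVX1-Δfs libraries it had 15.9, 16.9 and 19.1. The groups did not overlap, but wildtype replicate 2 stood far above the other wildtype libraries. The log2 fold change was -1.14 ± 0.35 (SE), with an adjusted p of 0.0566 by limma, so Fli1 was not called. It was called by DESeq2 (adjusted p 0.0397), by edgeR (0.0338), with a pseudocount of 16 (0.0488) and without wildtype replicate 3 (0.0267). With the replicate block edgeR did not call it (0.0993). Without wildtype replicate 2 the log2 fold change was -0.68, with an adjusted p of 0.279.

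Erg (chromosome 16, 95580776 to 95808200, minus strand) was the lowest of the 10 genes. It had 6, 12 and 4 reads in the wildtype libraries and 4, 8 and 6 in the EVX1-Δfs libraries, or 6.98 ± 3.20 and 6.16 ± 2.67 normalized counts (SD, n = 3). The groups overlapped. With no filter on low values, limma gave -0.15 on the log2 scale (adjusted p 0.891). A difference in Erg was not detectable at this depth.

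Of the genes whose products form the TAL1, LMO2 and GATA complex, Gata2 and Lmo2 fell. Gata2 (chromosome 6, 88143885 to 88157024, plus strand), the GATA factor of early blood precursors, had 207, 288 and 237 normalized counts in the wildtype libraries. In the EVX1-Δfs libraries it had 96.2, 162 and 120.1. All 3 EVX1-Δfs libraries were below all 3 wildtype libraries. The means were 244 ± 40.9 and 126 ± 33.5 (SD, n = 3), the log2 fold change was -0.96 ± 0.18 (SE) and the adjusted p by limma was 0.00408. Gata2 was called in all 18 alternative fits, with adjusted p-values from 5.46e-04 to 0.0353.

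Lmo2 (chromosome 2, 103798143 to 103822035, plus strand) encodes the LIM-only protein that bridges TAL1 and GATA factors without binding DNA itself. It had 311, 414 and 287 normalized counts in the wildtype libraries and 195, 226 and 219 in the EVX1-Δfs libraries. The groups did not overlap, and wildtype replicate 2 was again the highest library. The means were 337 ± 67.4 and 213 ± 16.0 (SD, n = 3), which is -0.64 ± 0.15 (SE) on the log2 scale (adjusted p 0.0167 by limma). The call was lost without wildtype replicate 2 (log2 fold change -0.49, adjusted p 0.0799) and without EVX1-Δfs replicate 1 (-0.58, adjusted p 0.0759). It was also lost once trends with GC content and transcript length were removed (-0.51, adjusted p 0.0907).

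Tal1 (chromosome 4, 114729031 to 114744360, plus strand), a basic helix-loop-helix factor required for all blood lineages, had 269.8, 371 and 230.2 normalized counts in the wildtype libraries. In the EVX1-Δfs libraries it had 163, 215 and 236. EVX1-Δfs replicate 3 was above wildtype replicate 3, so the groups overlapped. Its log2 fold change of -0.49 ± 0.17 (SE) did not pass (adjusted p 0.0947 by limma). Tal1 was called without wildtype replicate 3 (log2 fold change -0.64, adjusted p 0.0471), and without wildtype replicate 2 the log2 fold change was -0.30 with an adjusted p of 0.342.

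Lyl1 (chromosome 8, 87225356 to 87228614, plus strand), the closest relative of Tal1, had 13, 20 and 19 reads in the wildtype libraries. In the EVX1-Δfs libraries it had 9, 7 and 5 reads. The groups did not overlap, but the gene passed the filter through the wildtype libraries alone and rests on few reads. The normalized counts were 17.3 ± 4.67 and 7.02 ± 1.97 (SD, n = 3), the log2 fold change was -1.19 ± 0.43 (SE) and the adjusted p by limma was 0.0988. Lyl1 was not called. Its exons share 4 bases with those of Nfix on the opposite strand.

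Runx1 (chromosome 16, 92601712 to 92826311, minus strand) had 47.8, 111 and 45.8 normalized counts in the wildtype libraries. In the EVX1-Δfs libraries it had 38.3, 45.1 and 38.1. The groups came close to each other and were kept apart by a small margin, with 1 wildtype library far above the rest. Runx1 had a log2 fold change of -0.62 ± 0.28 (SE), which limma did not call (adjusted p 0.19). Without wildtype replicate 2 it was -0.21, with an adjusted p of 0.705. Runx1 shares 106 exon bases with Gm16801 on the opposite strand.

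Sox7 (chromosome 14, 64562511 to 64569569, plus strand) had 29.7, 78.8 and 26.3 normalized counts in the wildtype libraries and 19.6, 20.3 and 22.9 in the EVX1-Δfs libraries. As with Fli1 and Runx1, wildtype replicate 2 was the high library and the EVX1-Δfs libraries lay close together. The log2 fold change was -0.89 ± 0.34 (SE), with an adjusted p of 0.122 by limma, and without wildtype replicate 2 it was -0.40 with an adjusted p of 0.526. Sox7 is also a marker of extraembryonic endoderm. Sox18 (chromosome 2, 181404541 to 181406345, minus strand) had 46.9, 53.1 and 46.9 normalized counts in the wildtype libraries and 46.7, 37.2 and 21.0 in the EVX1-Δfs libraries. The wildtype libraries were alike and the EVX1-Δfs libraries were spread, from almost the wildtype level downwards. Sox18 had a log2 fold change of -0.54 ± 0.28 (SE), with an adjusted p of 0.241 by limma. Leaving out EVX1-Δfs replicate 3, the lowest library, brought it to -0.225 (adjusted p 0.726).

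**Figure D2:**
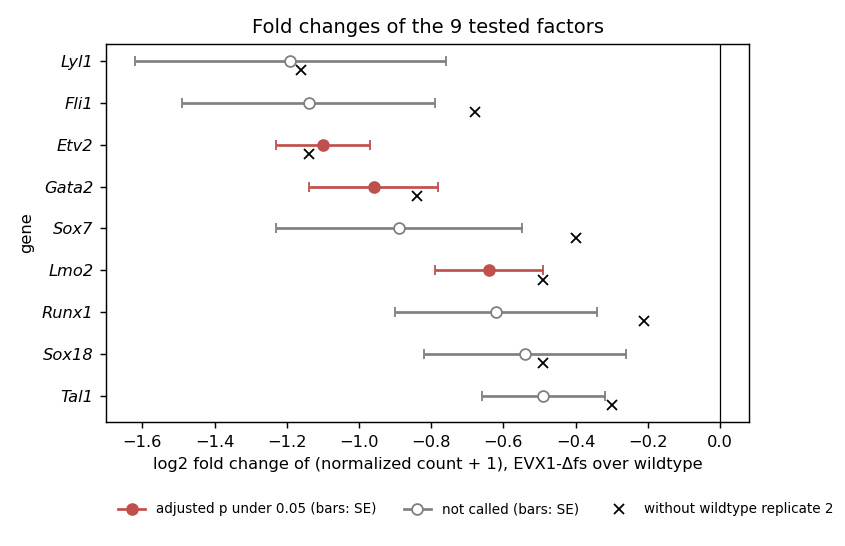
Log2 fold change of EVX1-Δfs over wildtype (x axis, ± SE) for the 9 haemangioblast transcription factors tested, with all 6 libraries and without wildtype replicate 2. All values lie below 0, and those of Fli1, Sox7 and Runx1 move most towards 0 without that library.

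Summed over the 10 genes, the wildtype libraries held 1574, 2007 and 1612 normalized counts and the EVX1-Δfs libraries 891, 1074 and 936. The highest EVX1-Δfs sum was below the lowest wildtype sum. Etv2 supplied between 29.4% and 42.6% of the sum in wildtype libraries and between 26.6% and 34.1% in EVX1-Δfs libraries. The EVX1-Δfs libraries were all below the wildtype libraries for 8 of the 9 genes tested, and for 7 of 8 without Lyl1, whose pass through the wildtype libraries favours such a separation. Of all genes tested, 14.7% showed this, and Tal1 did not.

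Per kilobase of annotated exon, which allows levels of different genes to be set side by side, Etv2 was the most abundant of the 10 genes in both groups. It had 423 ± 34.3 normalized counts per kilobase (SD, n = 3) in wildtype EBs and 198 ± 29.0 in EVX1-Δfs EBs. Lmo2 followed at 156 ± 31.1 and 98.5 ± 7.41. In wildtype EBs Gata2 (72.7 ± 12.2) and Tal1 (66.3 ± 16.6) came next and overlapped, then Sox18 (30.2 ± 2.20). Fli1 (14.1 ± 8.60), Sox7 (13.6 ± 8.90), Lyl1 (9.61 ± 2.60) and Runx1 (8.73 ± 4.73) formed a run in which neighbours overlapped, and Erg was last at 2.01 ± 0.921. In EVX1-Δfs EBs Tal1 (46.8) stood above Gata2 (37.7), again with overlap. Gata2 also overlapped Sox18 (21.6 ± 8.03) there, and Fli1 (5.56) overlapped its neighbours in the order, Sox7 (6.34) and Runx1 (5.19), which did not overlap each other.

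**Figure D3:**
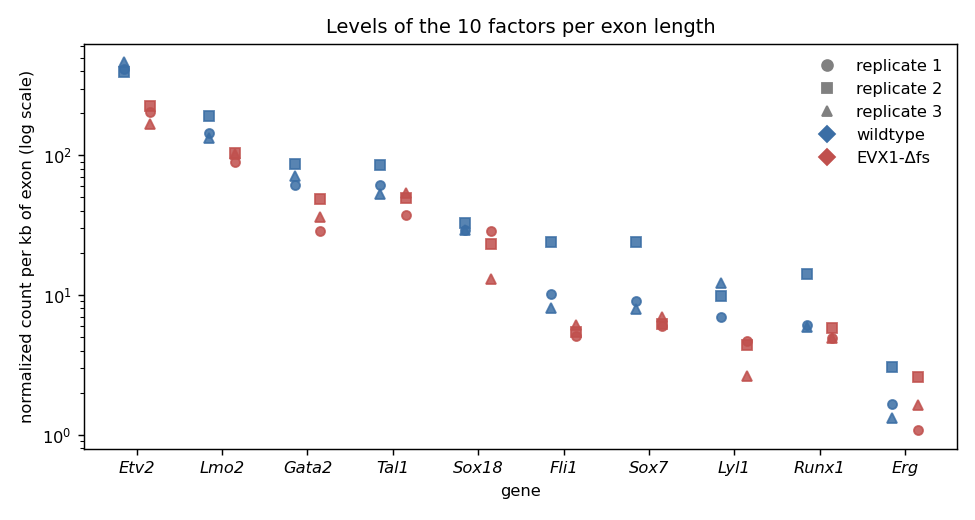
Normalized counts per kilobase of exon (log axis) of the 10 haemangioblast transcription factors, with wildtype and EVX1-Δfs libraries as points. Etv2 is the highest gene and Erg the lowest in both groups.

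Fli1, Sox7 and Runx1 had a single high wildtype library in common. Wildtype replicate 2 exceeded the mean of wildtype replicates 1 and 3 by 2.62 times for Fli1, 2.81 times for Sox7 and 2.36 times for Runx1. Only 0.776% of all genes tested, 102 of 13136, reached 2 times. For Tal1, Lmo2 and Gata2 the ratio was 1.48, 1.38 and 1.30, for Sox18 1.13, for Lyl1 1.04 and for Etv2 0.907. Erg, at few reads, had 2.06. Among related genes the ratio was 2.04 for Foxf1, 1.94 for Tie1, 1.94 for Cbfa2t3, 1.62 for Hand1 and 1.36 for Kdr. Others of the lists went the other way, with 0.833 for Mesp1, 0.839 for Lmo1, 0.817 for Lmo4 and 0.868 for Ssbp2. All of these related genes were named after their values were seen. Wildtype replicate 2 was the highest wildtype library for 7 of the 9 genes tested, against 30.9% of all genes tested, and also for Erg. The SD of the log2 values in wildtype libraries was 0.80 for Fli1, 0.85 for Sox7 and 0.71 for Runx1, at percentiles 98.6, 98.9 and 97.8 of all genes tested, while in EVX1-Δfs libraries it was 0.13, 0.11 and 0.14. These genes were singled out by this spread, so the percentiles are a description. Without that library limma called 2 of the 9 genes tested, Etv2 (log2 fold change -1.14, adjusted p 7.65e-05) and Gata2 (-0.84, adjusted p 0.0192). Of all genes tested, 2.4% were then called lower and 2.59% higher.

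**Figure D4:**
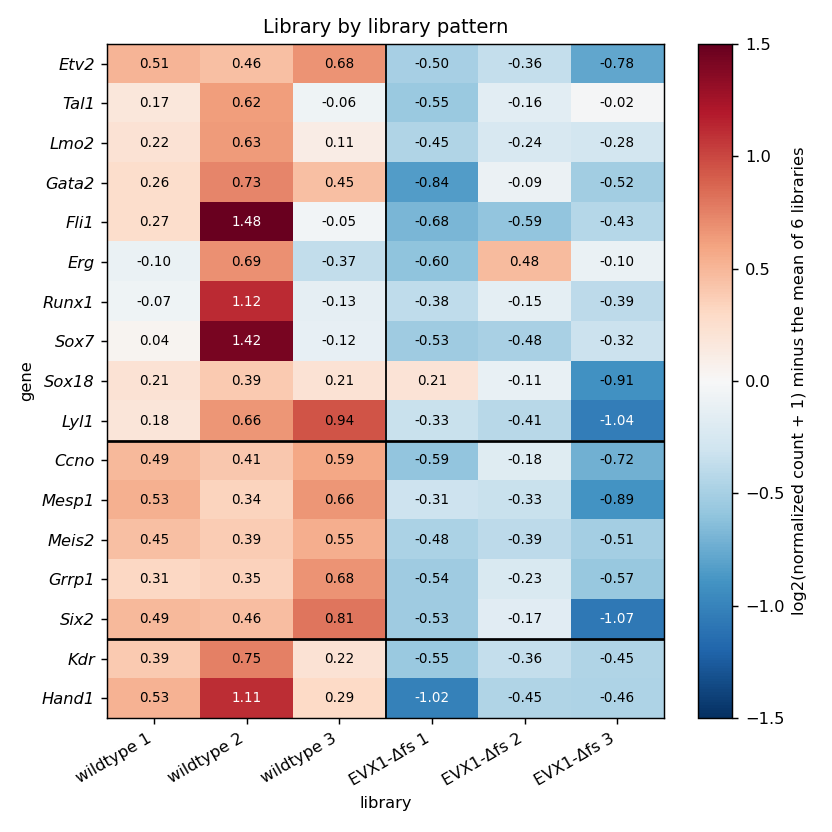
Log2 values of each gene (rows) centred on its mean over the 6 libraries (columns), with colour from below to above the mean and the value in each cell. Rows are the 10 haemangioblast factors, the 5 genes closest to Etv2, and Kdr and Hand1. Wildtype replicate 2 reaches 1.48 for Fli1, 1.42 for Sox7 and 1.12 for Runx1, while Etv2 is even across the wildtype libraries.

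By the root mean square difference of centred log2 values over the 6 libraries, Lyl1 (0.229) and Gata2 (0.274) were closest to Etv2 among the haemangioblast factors tested. Lyl1 passed the filter through the wildtype libraries alone, which favours a fall like that of Etv2. Sox7 (0.581) and Fli1 (0.554) were the farthest of those tested. Over 10625 other genes with a mean of at least 50 normalized counts, the closest to Etv2 were Ccno (0.098), Mesp1 (0.104), Meis2 (0.132), Grrp1 (0.141) and Six2 (0.150). Of these 10625 genes, 41 were closer to Etv2 than Lyl1 was, and 77 were closer than Gata2. Mesp1, a bHLH factor of nascent mesoderm, had 1331 ± 150.2 normalized counts in wildtype EBs and 662 ± 141 in EVX1-Δfs EBs (SD, n = 3). Closeness to a gene that fell selects other genes that fell, so their fold changes carry no further weight. The ratio of Etv2 to Mesp1 was 0.455, 0.502 and 0.467 in the wildtype libraries and 0.404, 0.453 and 0.498 in the EVX1-Δfs libraries, with overlap. The ratio of Etv2 to Kdr was 0.326, 0.244 and 0.412 against 0.311, 0.299 and 0.236, also with overlap. These ratios were chosen after the values were seen and were not tested. Mesp1 was picked for its closeness to Etv2 in these same libraries, so an even ratio to it follows from that choice.

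Many of the genes that act before the haemangioblast factors were lower too, though not all. Of 25 upstream genes (BMP, WNT and FGF signals, their receptors and mesoderm factors), 24 were tested, 12 fell and 0 rose. Over all genes tested, 2.95% were called lower and 2.08% higher. At an unadjusted p under 0.05 there were 16 lower and 0 higher, against 12.4% and 10.7% of all genes tested. DESeq2 and edgeR called 0 higher, against 2.44% and 2.35% of all genes. With the replicate number as a block, limma called 8 lower (1.11% of all genes tested) and edgeR 7 (0.958%). With GC content and length trends removed limma called 8 (1.16%). The median log2 fold change was -0.56, against 0 over all genes tested. The BMP receptor gene Bmpr2, named after its values were seen, had 0.37 (adjusted p 0.232 by limma). The study's text names 10 of the 25 from these libraries, so the list is not independent evidence of its direction. Hand1, a bHLH factor of posterior and extraembryonic mesoderm, fell from a mean of 2925 ± 885 normalized counts to 1185 ± 247 (SD, n = 3), a change of -1.28 on the log2 scale (adjusted p 9.36e-05 by limma). Mesp1 fell by 1.02 (adjusted p 1.81e-04) and Tbx6 by 1.00 (adjusted p 0.0109) on the log2 scale. Wnt3a, a signal of the primitive streak, fell by 1.75 (adjusted p 0.0131 by limma). The size of this fall depended on the pseudocount. With a pseudocount of 16 the log2 fold change of Wnt3a was -0.998 (adjusted p 0.00837 by limma), and DESeq2 gave it no adjusted p. With the replicate number as a block the adjusted p of Wnt3a was 0.0564. It was 0.0595 without wildtype replicate 3 and 0.0613 without EVX1-Δfs replicate 1. Without EVX1-Δfs replicate 1 the count of genes lower was 6, against 1.07% of all genes tested.

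Most partners of the haemangioblast factors did not pass the test. Of 17 partners and cofactors, all tested, 2 fell and 0 rose, against 2.95% and 2.08% of all genes tested. At an unadjusted p under 0.05 there were 8 lower and 2 higher, against 12.4% and 10.7% of all genes tested. DESeq2 called 4 lower and 0 higher, against 4.45% and 2.44% of all genes. EdgeR called 2 lower and 0 higher, against 2.87% and 2.35%. The median log2 fold change was -0.18. Ssbp4, which stabilises LDB1, had a log2 fold change of -0.55 (adjusted p 0.0194 by limma). Zfpm1, the GATA cofactor FOG1, had -0.44 (adjusted p 0.0337). With the replicate block neither was called, at adjusted p-values of 0.0545 and 0.0694. The count was 0 without wildtype replicate 1 or EVX1-Δfs replicate 3, and 1 without wildtype replicate 2, wildtype replicate 3 or EVX1-Δfs replicate 1. Ldb1, the bridge of the complex, had -0.30 (adjusted p 0.108), and Cbfb, the partner of RUNX1, had 0.06 (adjusted p 0.781). Both were named after their values were seen.

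Relatives within the ETS, GATA, RUNX and SOXF families moved in both directions. Of 26 listed, 22 were tested, 3 fell and 1 rose, against 2.95% and 2.08% of all genes tested. At an unadjusted p under 0.05 by limma there were 8 lower and 2 higher, against 12.4% and 10.7% of all genes tested. The median log2 fold change was -0.09. Runx3 fell from a mean of 143 ± 21.6 normalized counts to 67.9 ± 9.57 (SD, n = 3), a change of -1.07 on the log2 scale (adjusted p 0.00224 by limma). Elk3 (-0.65, adjusted p 0.027) and Erf (-0.37, adjusted p 0.0424), both ETS repressors, were called lower, but not with the replicate block (0.0587 and 0.0777). Sox17, the remaining SOXF gene and a marker of definitive endoderm, had 33.5, 59.3 and 49.2 normalized counts in the wildtype libraries and 81.2, 116 and 70.5 in the EVX1-Δfs libraries. All its EVX1-Δfs libraries were the higher, unlike those of Sox7 and Sox18. The log2 fold change of Sox17 was 0.91 (adjusted p 0.0334 by limma), and 0.0564 with the block. The adjusted p of Sox17 was 0.121 without wildtype replicate 1 and 0.0505 without wildtype replicate 3. It was 0.0795 when EVX1-Δfs replicate 1 was left out and 0.133 when replicate 2 of that group was. The count of relatives lower was 1 when wildtype replicate 2 was left out, and also when EVX1-Δfs replicate 1 or 3 was. In those fits 2.4%, 1.07% and 1.08% of all genes tested were called lower. No relative was higher without wildtype replicate 3 or without replicate 1 or 2 of EVX1-Δfs.

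Of 25 endothelial genes, 20 were tested, 4 fell and 1 rose, against 2.95% and 2.08% of all genes tested. At an unadjusted p under 0.05 by limma there were 8 lower and 2 higher, against 12.4% and 10.7% of all genes tested. DESeq2 and edgeR each called 4 lower and 1 higher, against 4.45% and 2.87% of all genes lower and 2.44% and 2.35% higher. The median log2 fold change was -0.37. Kdr, the VEGF receptor that marks haemangioblast mesoderm, had 1877, 2415 and 1669 normalized counts in the wildtype libraries and 976, 1118 and 1052 in the EVX1-Δfs libraries. The groups were far apart, with a log2 fold change of -0.91 (adjusted p 2.03e-04 by limma). Hey1, a Notch target, fell by 0.92 (adjusted p 5.51e-04), and the endothelial secreted factor Egfl7 fell by 0.66 (adjusted p 0.00822) on the log2 scale. Eng, a coreceptor of BMP signals, fell by 0.50 (adjusted p 0.0182), and lost its call without wildtype replicate 1 (0.0506) or 2 (0.0592), or when EVX1-Δfs replicate 1 (0.0524) or 3 (0.0836) was dropped. Egfl7 was not called without EVX1-Δfs replicate 3 (0.0556). Flt1, the other VEGF receptor of early vessels, went up from 181 ± 22.6 to 304 ± 11.9 (SD, n = 3; normalized counts), a change of 0.75 on the log2 scale (adjusted p 0.00413). The list thus held members that moved in opposite directions. Cdh5 (VE-cadherin), at -0.94, narrowly missed the threshold (adjusted p 0.0562).

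Differentiated blood was scarcely detected in either group. Of 24 haematopoietic genes only 10 reached the filter, and limma called 0 lower and 0 higher, against 2.95% and 2.08% of all genes tested. At an unadjusted p under 0.05 there were 1 lower and 2 higher, against 12.4% and 10.7%. DESeq2 and edgeR called 0. The median log2 fold change was 0.23. Ptprc (CD45), Hba-a1 and Hbb-y had 0 reads in all libraries, and embryonic globin Hbb-bh1 had at most 8.58 normalized counts. Gata1 had 17.2, 17.7 and 5.73 normalized counts in the wildtype libraries and 15.9, 23.7 and 21.0 in the EVX1-Δfs libraries. The best expressed genes of the list, Kit and Cd44, are not restricted to blood. Kit had a log2 fold change of 0.35 (adjusted p 0.113) and Cd44 of 0.13 (adjusted p 0.755).

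**Figure D5:**
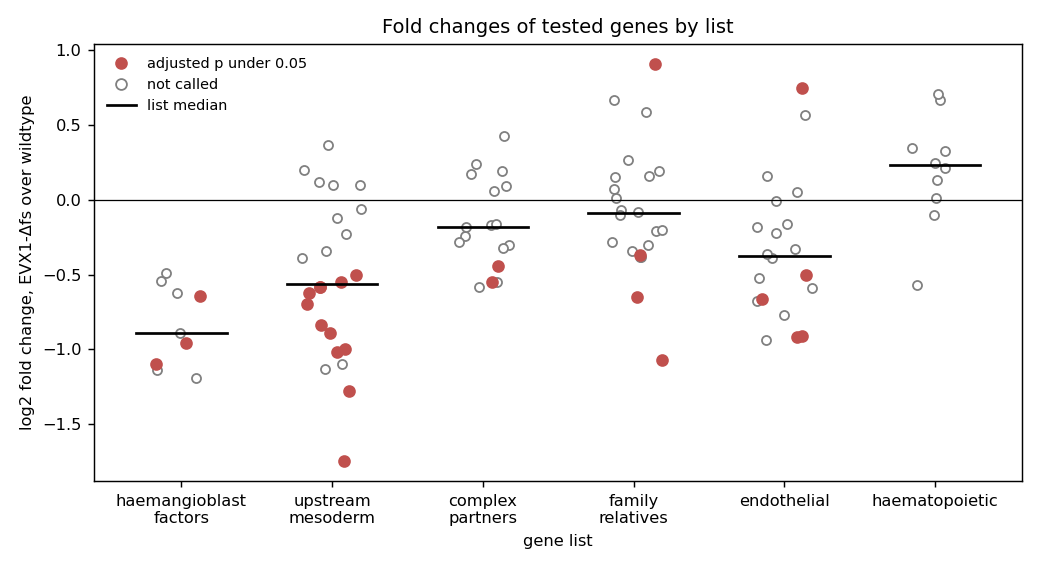
Log2 fold change of EVX1-Δfs over wildtype (limma) for each tested gene of the haemangioblast factors and of the related lists, with called genes marked and the list median drawn. The haemangioblast factors lie between -1.19 and -0.49, and the haematopoietic genes have no call.

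Gastrulation genes were abundant in both groups, such as T (brachyury) with means of 4643 ± 655 normalized counts (SD, n = 3) in wildtype and 3100.6 ± 450 in EVX1-Δfs EBs, while Pecam1, Tek and Hbb-bh1, markers of later vessels and blood, were low. Markers of other cell types were summed beside these results, and their part in them was not tested. Over all genes tested, limma called 2.95% lower and 2.08% higher, and 12.4% and 10.7% were so at an unadjusted p under 0.05. Pluripotency markers summed to between 20212 and 29537 normalized counts in wildtype and between 24176 and 29195 in EVX1-Δfs libraries. Of 11, limma called 1 higher. DESeq2 and edgeR each called 5 higher, against 2.44% and 2.35% of all genes. At an unadjusted p under 0.05, 6 were higher and 0 lower by limma. Definitive endoderm markers summed to between 4242 and 7382 against 5588 and 6471, with 3 of 9 tested called higher (Sox17, Foxa2, Cer1) and 1 lower (Cxcr4). Visceral endoderm markers summed to between 6157 and 7165 against 5375 and 5584, with 0 of 7 called by limma, DESeq2 or edgeR and 5 lower at an unadjusted p under 0.05. Of its defining markers Afp had 0 reads in the wildtype libraries and Ttr at most 1.91 normalized counts, and Sox7 belongs to this list too. Neurectoderm markers summed to between 3727 and 4942 against 4529 and 4911, with 1 of 6 called higher and 1 lower. Cardiac mesoderm markers summed to between 972 and 1201 against 904 and 1094, with 1 of 7 called higher. With the replicate block limma called 0 pluripotency, neurectoderm and cardiac markers, and 1 endoderm marker higher and 1 lower. With that block it called 1.11% of all genes tested lower and 0.579% higher. Wildtype replicate 2, the high library for Fli1, Sox7 and Runx1, had the lowest wildtype sums of the pluripotency, endoderm, visceral endoderm and neurectoderm lists and the highest of the cardiac list.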

How the data were processed

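The authors sequenced mRNA libraries on an Ion Proton and mapped reads to mm9 with TopHat2, followed by TMAP. HTSeq then assigned reads to genes at standard settings, which for that tool are strand-specific. The versions and the annotation are not given in the sources used here. In the deposited table each value is a signal of at least 0, reads per gene divided by a size factor of the library. Dividing each column by its smallest step gave whole reads for 100% of values (tolerance 0.001), and the factors lay within 0.00577% of those of DESeq2.

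The main test was limma 3.58.1 (mean-variance trend, R 4.3.3) on log2(normalized count + 1), a scale that understates the change of low genes, with all 6 libraries and genotype alone. Genes needed 10 normalized counts in 3 libraries. DESeq2 1.42.0 and edgeR 4.0.16 quasi-likelihood tests on the recovered reads were alternatives, with other scalings, pseudocounts of 4 and 16, no filter, GC content and length trends removed (splines of 5 degrees of freedom), each library left out and the replicate number as a block. The fits were tested on simulated data. The design text states that each side by side set was started on a different day. No label ties the replicate number to a day, so the block assumes that same-numbered libraries belong to 1 set. Deviations of same-numbered libraries from their group means correlated at 0.111, 0.00933 and -0.101 over 13136 genes, which are not independent.

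Genes were placed on NCBIM37 with GENCODE vM1 (21791 of 23353 symbols, 93.3%, matched, 768 by an older symbol). Exon lengths are unions over transcripts. Members and lists were chosen with earlier results of these data known, the lists from general knowledge of blood and vessel development. Genes named were the 10 members, Evx1, up to 4 called genes per direction and list with the largest fold change (or the 2 best expressed where fewer than 2 were called) and the 5 genes closest to Etv2. Other genes stand in a marker list or were chosen with their values known.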

Additional observations from a re-analysis of the deposited data

How the results depend on the processing

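The 9 tested haemangioblast factors gave 156 values over the alternatives. Of these, 147 kept the direction and the side of the threshold, 4 (all Lmo2) lost the call, 5 (Fli1 and Tal1) gained it and 0 changed sign. The count called lower was 3, and 2 to 5 with 1 library left out (5 without wildtype replicate 3). Of all genes tested 2.95% were called lower, and from 1.07% to 2.76% with 1 library left out (1.86% without wildtype replicate 3). The replicate block assumes that the replicate number marks a shared day, which no label states. It changed no limma call among these factors, and by DESeq2 and edgeR the count lower went from 4 to 3. The share of all genes called lower went from 2.95% to 1.11% by limma, 4.45% to 2.44% by DESeq2 and 2.87% to 0.958% by edgeR. Fli1 lost its edgeR call (adjusted p 0.0993) and had no adjusted p by DESeq2. In the limma fits with the replicate block, the partners lower went from 2 to 0, the relatives lower from 3 to 1 and the relatives higher from 1 to 0, and the upstream genes T, Eomes and Foxf1 had adjusted p-values of 0.0566, 0.0586 and 0.0574. DESeq2 with the block gave 1 partner lower, 0 relatives lower and 0 relatives higher, and edgeR with the block gave 0, 1 and 0, with 7 upstream genes lower. With GC and length trends removed there were 0 partners and 2 endothelial genes lower, against 1.16% of all genes tested. With the block added to that correction there were 0 partners, 1 relative, 4 upstream and 2 endothelial genes lower and 0 relatives higher. The share of all genes called lower was then 0.685%. DESeq2 without the block called 4 partners lower, and with no filter 0 relatives were called higher. With 1 library left out, the counts lower ran from 0 to 2 for partners, 1 to 2 for relatives, 6 to 12 for upstream and 3 to 5 for endothelial genes, and relatives higher from 0 to 1. The causes were not tested.

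Among 389 values of 22 other named genes, 320 kept direction and side, 60 lost the call and 9 changed sign, all in genes that were not called. Evx1 changed to 0.000334 with edgeR, 0.013 with upper-quartile scaling and 0.193 with GC and length trends removed, with or without the block, and ran from -0.086 to 0.076 with 1 library left out. Cd44 changed to -0.00641 under that same correction, blocked or not, and ran from -0.191 to 0.376. With 3 libraries a group, low genes such as Erg and Lyl1 are limited by their few reads, and counting error adds to the spread between libraries.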
